A study of Mus musculus with 18 samples.

Results

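Foxp3 and 6 other genes known from regulatory T cells, Lrrc32, Tnfrsf18, Tnfrsf4, Il2rb, Tigit and Itgae, were examined in maps of chromatin-bound cohesin and CTCF from sorted DP thymocytes. These are immature thymocytes, usually defined as CD4+ CD8+. Their peaks were taken as all peaks within 100 kb of the 7 gene bodies in each of 7 peak lists. This gave 372 of the 207027 peaks on the standard chromosomes, near 7 of 21883 protein-coding genes. The windows of Tnfrsf18 and Tnfrsf4, neighbours on chromosome 4, held the same peaks in every list, so the 7 genes stand for 6 separate stretches of genome.

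The series profiled WT and tamoxifen-induced Satb1 KO thymocytes by CUT&RUN. Here a nuclease tethered by an antibody cuts the DNA around a chosen protein, and the fragments set free are sequenced. All samples of both genotypes carry tamoxifen as their treatment label. No label gives the driver of the inducible deletion, the age of the mice or the number of animals per library. The lists analysed were WT SMC1A (2), KO SMC1A (2), WT CTCF (1) and KO CTCF (2), from 18 samples. Where nothing says that replicates came from separate animals, a p-value speaks of the spread among these libraries alone, and that spread may be technical.

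Cohesin is a ring-shaped complex, with SMC1A among its core subunits, that forms loops by reeling in chromatin. CTCF is a DNA-binding protein that often stops this process and so marks loop ends. Foxp3 encodes the transcription factor that defines regulatory T cells. The other 6 genes encode surface proteins these cells carry. Lrrc32 encodes GARP, which holds latent TGF-beta on the cell surface. Tnfrsf18 encodes GITR and Tnfrsf4 encodes OX40, both costimulatory receptors of the TNF receptor family. Il2rb encodes the beta chain shared by the receptors for IL-2 and IL-15. Tigit encodes an inhibitory receptor, and Itgae encodes CD103, the integrin alpha chain that binds E-cadherin. SATB1, an abundant chromatin organiser of thymocytes, has been linked to the activation of regulatory T cell enhancers in thymic precursors. A peak list shows where a protein was detected and not whether a gene was expressed.

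Peaks numbered 19882 and 20638 in the WT SMC1A lists and 28151 and 20689 in the KO SMC1A lists, and the CTCF lists held 38989 in WT and, for KO, 55750 and 22928. The files give no sequencing depth, so it is unknown. Local backgrounds were recovered from the peak caller's statistics for a random sample of peaks of each list. Their lowest percentile was 0.384 to 0.633 reads in the SMC1A lists. In the CTCF lists it was 1.02, 1.82 and 3.28 reads, in the order above. KO CTCF replicate 2 thus had the highest background of the CTCF lists and the fewest peaks. The part that list length and background played in the differences below was not tested beyond the scaled values given. Satb1 deletion cannot be checked from peak lists. In what follows a peak's −log10 q and pile-up are the authors' caller's statistics, the second recovered from its fold and p, and they rank peaks only within their own list. In these bulk preparations a peak that drops below detection in fewer bound cells cannot be told apart from one weaker in every cell.

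Promoters of 8 genes show the sequences on which the results turn. They are the 250 bases before a transcription start, read 5′ to 3′, from the RefSeq promoter table (GRCm38.p6, the same assembly as mm10). That table held 4 of the 7 genes, Foxp3, Tnfrsf18, Tnfrsf4 and Tigit. Capitals mark CTCF words, 4 spellings of the core of the CTCF motif, on either strand. The first is AGGGGGC and the second is AGGTGGC, while the third is AGATGGC and the last is AGAGGGC. At least 1 of them occurs in 23.6% of 32851 promoters of this length. Foxp3 (chrX:7579426-7579675, plus strand) is shown because no list had a peak there, and Ppp1r3f (chrX:7574282-7574531, minus strand) because it lies under the region nearest Foxp3. Gm38588 (chr7:98481015-98481264, plus) lies under the region nearest Lrrc32 that all lists held. Ube2j2 (chr4:155943563-155943812, plus) and Tnfrsf18 (chr4:156026072-156026321, plus) are promoters at which SMC1A lists differed, and Tigit (chr16:43664185-43664434, minus) had SMC1A in 1 list. Ncbp3 (chr11:73047617-73047866, plus) and Haspin (chr11:73138295-73138544, minus) lie under regions of the Itgae window that all 7 lists held.
Foxp3: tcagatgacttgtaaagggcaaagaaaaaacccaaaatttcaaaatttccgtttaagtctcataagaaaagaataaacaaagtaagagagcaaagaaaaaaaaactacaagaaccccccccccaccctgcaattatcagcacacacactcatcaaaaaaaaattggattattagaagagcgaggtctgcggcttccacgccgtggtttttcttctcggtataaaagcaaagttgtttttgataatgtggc
Ppp1r3f: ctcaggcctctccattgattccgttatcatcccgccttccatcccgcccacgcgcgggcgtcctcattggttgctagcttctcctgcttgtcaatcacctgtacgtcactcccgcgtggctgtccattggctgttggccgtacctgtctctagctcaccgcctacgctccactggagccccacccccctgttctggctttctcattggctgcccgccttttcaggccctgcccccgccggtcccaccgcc
Gm38588: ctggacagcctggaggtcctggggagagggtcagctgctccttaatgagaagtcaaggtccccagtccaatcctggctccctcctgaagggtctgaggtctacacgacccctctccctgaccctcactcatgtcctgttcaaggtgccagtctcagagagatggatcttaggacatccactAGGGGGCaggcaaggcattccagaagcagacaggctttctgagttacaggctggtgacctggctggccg
Ube2j2: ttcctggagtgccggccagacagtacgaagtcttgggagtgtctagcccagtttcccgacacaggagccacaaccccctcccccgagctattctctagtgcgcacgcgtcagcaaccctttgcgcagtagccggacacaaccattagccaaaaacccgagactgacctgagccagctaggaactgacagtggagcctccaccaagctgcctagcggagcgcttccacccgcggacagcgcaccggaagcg
Tnfrsf18: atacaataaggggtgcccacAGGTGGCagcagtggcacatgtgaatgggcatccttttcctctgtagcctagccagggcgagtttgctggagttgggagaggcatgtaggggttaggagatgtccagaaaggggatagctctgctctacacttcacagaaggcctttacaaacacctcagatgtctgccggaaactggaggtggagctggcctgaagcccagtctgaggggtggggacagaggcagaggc
Tigit: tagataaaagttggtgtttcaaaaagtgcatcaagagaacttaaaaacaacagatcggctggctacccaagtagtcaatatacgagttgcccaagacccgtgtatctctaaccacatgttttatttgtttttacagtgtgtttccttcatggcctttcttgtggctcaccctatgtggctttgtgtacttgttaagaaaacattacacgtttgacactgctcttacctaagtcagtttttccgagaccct
Ncbp3: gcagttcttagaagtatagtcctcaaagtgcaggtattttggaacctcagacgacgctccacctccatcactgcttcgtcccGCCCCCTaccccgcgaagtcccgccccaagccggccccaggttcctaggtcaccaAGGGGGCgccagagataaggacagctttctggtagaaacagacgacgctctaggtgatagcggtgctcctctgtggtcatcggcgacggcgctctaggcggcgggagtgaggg
Haspin: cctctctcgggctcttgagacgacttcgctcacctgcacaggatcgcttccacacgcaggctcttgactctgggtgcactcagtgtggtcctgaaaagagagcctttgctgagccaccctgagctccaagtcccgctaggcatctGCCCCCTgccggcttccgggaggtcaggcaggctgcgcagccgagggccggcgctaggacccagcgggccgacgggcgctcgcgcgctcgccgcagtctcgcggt
The promoters of Gm38588, Tnfrsf18, Ncbp3 and Haspin hold a CTCF word, and those of Foxp3, Ppp1r3f, Ube2j2 and Tigit hold none. The RUNX core word TGTGGT, present in 14% of all promoters on either strand, occurs in those of Tigit, Ncbp3 and Haspin. The GC box word GGGCGG, present in 32.7% of all promoters, occurs in those of Ppp1r3f and Ncbp3. A GC box can share bases with a CTCF word. These are matches of letters and not measured binding sites.

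Over the whole set of windows, merging the peaks of all 7 lists gave 103 regions. All 7 lists held 25 of them, or 24.3%, beside 15.3% of the 64051 regions within 100 kb of any protein-coding gene. SMC1A and CTCF shared 56 regions, CTCF alone had 37 and SMC1A alone had 10. Of the 66 regions with SMC1A, 15.2% had no CTCF, beside 10.5% near all protein-coding genes. The 25 regions common to all lists were unevenly placed, with 9 around Itgae, 6 around Il2rb, 5 around Tnfrsf18 and Tnfrsf4, 3 around Foxp3, 2 around Lrrc32 and 0 around Tigit. Their summits in the 7 lists lay within a median of 203 bp of each other. Another 40 regions (38.8%) were in 1 list only, beside 45% near all protein-coding genes. KO CTCF replicate 1, the longest list, accounted for 22 of those 40. Only 8 of the 103 regions touched a body of the 7 genes.

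**Figure D1:**
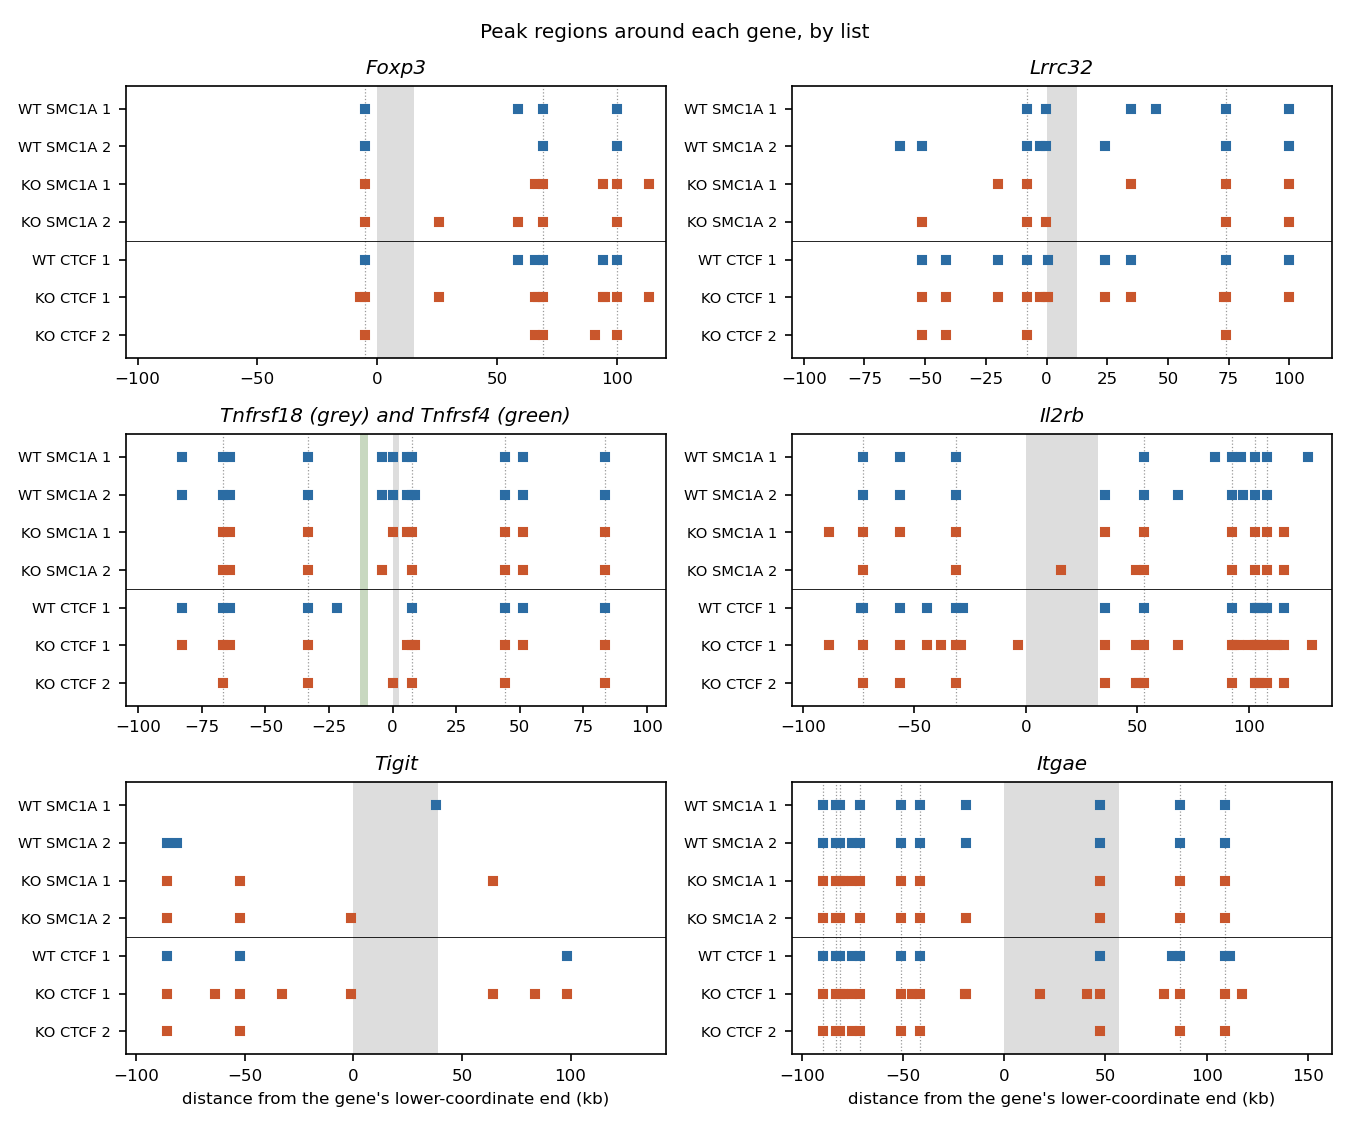
Peak regions around each gene by list; the x axis is the distance in kb from the lower-coordinate end of the gene, each square is a region that the list holds, shaded bars are gene bodies and dotted lines mark regions held by all 7 lists. Blue is WT and orange is KO; the Foxp3 body is empty in all 7 lists, and Tigit has no dotted line.

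Of the promoters in these windows, 18 starts of 13 genes had a peak of every list over the stretch from 250 bases before to 50 after the start. A CTCF word occurred upstream of 9 of these 18 starts (50%) and a GC box upstream of 11 (61.1%). Of the 34 starts that no list covered, 7 (20.6%) had a CTCF word and 5 (14.7%) a GC box. The covered promoters belong to neighbours of the 7 genes and not to Foxp3, Tnfrsf18, Tnfrsf4 or Tigit. Lrrc32, Il2rb and Itgae have no promoter entry and could not be among them. Several of the starts are alternative starts of 1 gene and share sequence.

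Foxp3 lies on chromosome X from 7579676 to 7595243 on the plus strand. Neither its body nor either of its 2 annotated promoters carried a peak in any list, and the nearest summit of any list to its first start was 5119 bp away. Within 100 kb of the gene, WT SMC1A lists held 4 and 3 peaks and KO SMC1A lists 6 and 5. The CTCF lists had 6 in WT and 10 and 5 in KO. Scaled to 1000 peaks of its list, each count became 0.201 and 0.145 for WT SMC1A, 0.213 and 0.242 for KO SMC1A, 0.154 for WT CTCF and 0.179 and 0.218 for KO CTCF. Both KO lists were above both WT lists for SMC1A, by a narrow margin in batch 1. Here and below, batch 1 and batch 2 stand for replicate numbers 1 and 2 and not for known processing batches.

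The region nearest Foxp3 was at chrX:7574049-7574993, 4.68 kb before its start, over the promoter of Ppp1r3f, which encodes a glycogen-targeting phosphatase subunit. All 7 lists held it. The SMC1A pile-up at its summit was 15 and 19 reads in WT and 22 and 7 in KO, and the CTCF pile-up was 28 in WT and 57 and 21 in KO. In rank it was below 42.6% and 23% of peaks in the WT SMC1A lists and below 25.6% and 64.5% in the KO lists, so the genotypes overlapped. The start of Flicr, a non-coding RNA gene next to Foxp3 that is expressed in regulatory T cells, was 795 bp from the nearest summit. The strongest region of the window in each of the 7 lists was at chrX:7648233-7649484 in Syp, which encodes synaptophysin, 53 kb beyond the gene. Its −log10 q was 31.6 and 19.2 in WT SMC1A, 29.8 and 28.6 in KO SMC1A, 27 in WT CTCF and 122 and 25.1 in KO CTCF. It ranked in the top 16.6% of every list. The third region in all 7 lists was at chrX:7679450-7680544 in Magix. No SMC1A region of this window was lost or gained by the definitions below, and 1 CTCF region was lost, at chrX:7638485-7638799 over the Syp promoter, with a pile-up of 10 reads in the WT list. The SMC1A lists of WT replicate 1 and KO replicate 2 still had a peak at that promoter.

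Density here is the log2 of the peaks within 100 kb plus 0.5, per 1000 peaks of the list, fitted for every gene with a mean of at least 2 peaks. Near Foxp3 it differed between KO and WT by 0.34 ± 0.28 on the log2 scale (SE; limma adjusted p = 0.64 over 14597 genes) for SMC1A and by 0.35 ± 0.42 (limma adjusted p = 1 over 16874 genes) for CTCF. Neither passed the test. Leaving out WT SMC1A replicate 2 gave 0.13, and leaving out WT SMC1A replicate 1 gave 0.55. For CTCF the value was 0.18 with KO replicate 2 left out and 0.52 with KO replicate 1 left out. With only peaks of −log10 q of 5 or more the SMC1A value was -0.05, so its direction depends on the weak peaks. By the profile of densities over the 7 lists, the genes on other chromosomes most like Foxp3 were B3galt5 (Pearson r of 0.99), Nol7 (0.984) and A1cf (0.982), among 15506 genes. These r values are descriptions over 7 lists, in which all genes share each list's total.

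**Figure D2:**
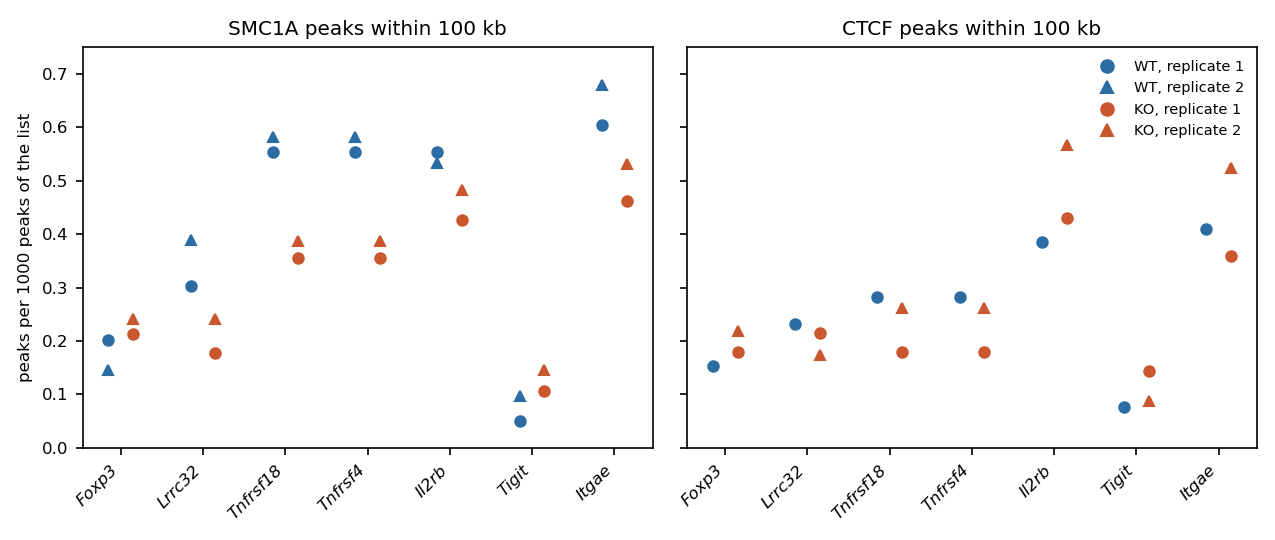
Peaks within 100 kb of each gene per 1000 peaks of the list, for SMC1A on the left and CTCF on the right; each point is 1 list, blue for WT and orange for KO, circles for replicate 1 and triangles for replicate 2. For SMC1A the KO points lie below the WT points at Lrrc32, Tnfrsf18, Tnfrsf4, Il2rb and Itgae, and above them at Foxp3 and Tigit.

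Lrrc32 lies on chromosome 7 from 98489305 to 98501831. Its window held 6 and 8 SMC1A peaks in the WT lists against 5 and 5 in the KO lists, with 9 CTCF peaks in WT against 12 and 4. Per 1000 peaks the SMC1A lists had 0.302 and 0.388 in WT and 0.178 and 0.242 in KO, with no overlap between the genotypes. The log2 density difference was -0.69 ± 0.26 (SE; limma adjusted p = 0.32), with -0.74 within batch 1 and -0.63 within batch 2. It was the most negative value of the 7 genes and did not pass the test. For CTCF it was -0.22 ± 0.40 (limma adjusted p = 1), and -0.12 without KO CTCF replicate 2.

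At the lower-coordinate end of the Lrrc32 body, chr7:98489180-98489488, both WT SMC1A lists had a small peak and neither KO SMC1A list did. The pile-up was 8 reads in each WT list, over local backgrounds of 0.619 and 0.54. KO SMC1A replicate 2 had a separate peak just beside it, with its summit at 98488863 and a pile-up of 7 reads. Peaks of the same strength as these ranked below 66.7% or more of their list, so the difference rests on a few reads in each list. The region nearest the gene that all 7 lists held was at chr7:98480939-98481665, 7.64 kb below it, on the start of Gm38588, whose promoter holds the CTCF word printed above. There the SMC1A pile-up was 20 and 13 reads in WT and 25 and 15 in KO. The other region in all 7 lists was at chr7:98562766-98563555, 60.9 kb above the gene and outside any protein-coding gene, with −log10 q of 27 and 15.7 in WT SMC1A and 29.5 and 11.6 in KO SMC1A. It was the strongest of the window in 5 of 7 lists. The regions that flank the gene were therefore present in both genotypes.

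Tnfrsf18 (chromosome 4, 156026322 to 156028894) and Tnfrsf4 (156013595 to 156016613) lie side by side on the plus strand. For SMC1A their window held 11 and 12 peaks in the WT lists against 10 and 8 in the KO lists, and for CTCF it held 11 in WT against 10 and 6. Per 1000 peaks of the list the SMC1A values were 0.553 and 0.581 in WT and 0.355 and 0.387 in KO. The replicates of each genotype were close to each other, and the genotypes were well apart. The log2 difference was -0.60 ± 0.20 (SE; limma unadjusted p = 0.0093, adjusted p = 0.27), with -0.63 and -0.56 within the batches. It was the lowest p of the 7 genes and did not pass after adjustment. In the raw number of peaks the genotypes lay closer together, because KO SMC1A replicate 1 is the longest SMC1A list. For CTCF the log2 difference was -0.35 ± 0.44 (limma adjusted p = 1), and it was -0.06 without KO CTCF replicate 1 and -0.65 without KO CTCF replicate 2. With a 20 kb window it was 1.10 at Tnfrsf18 and 0.06 at Tnfrsf4, the other direction.

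Of the 4 genes with a promoter entry, Tnfrsf18 alone had SMC1A over its own promoter in more than 1 list. The merged region at chr4:156026021-156026689 had peaks of both WT SMC1A lists, KO CTCF replicate 2 and KO SMC1A replicate 1. The KO SMC1A peak began just past the start, at 156026329, with its summit at 156026643, and so lay outside the printed promoter. The SMC1A pile-up was 13 and 6 reads in WT and 7 in that KO list, so it was weak in all but WT replicate 1. Between the pair of genes, at chr4:156022023-156022546, 3.78 kb before Tnfrsf18, SMC1A stood without a CTCF peak in any list. Its pile-up was 11 and 19 reads in WT and 10 in KO replicate 2, and KO replicate 1 had no peak. Among the 10 SMC1A regions without CTCF it was the only one held by 3 SMC1A lists. Tnfrsf4 had no peak in its body in any list, and the nearest summit to its start was 8561 bp away.

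All 7 lists held 5 regions of this window, at chr4:155959024-155959892 in Ube2j2, chr4:155991883-155993887 over the divergent promoters of B3galt6 and Sdf4, chr4:156033241-156034383, chr4:156069944-156071285 and chr4:156109146-156110530 at the start of 9430015G10Rik. The B3galt6 and Sdf4 region was the strongest of the window in 6 of 7 lists. Its SMC1A pile-up was 34 and 45 reads in WT and 54 and 26 in KO, and its CTCF pile-up was 60 in WT and 137 and 41 in KO. The region at 156033241, 4.35 kb beyond Tnfrsf18, had SMC1A pile-ups of 17 and 35 in WT and 18 and 14 in KO, and it ranked below 4.23% of peaks in WT replicate 2 against 24.6 to 27.7% in the other 3 lists. The Ube2j2 promoter, at chr4:155943558-155943890, was the lost SMC1A region of the window. Its pile-up was 16 and 7 reads in the WT lists, while WT CTCF and KO CTCF replicate 1 both kept a peak there. The lost CTCF region, at chr4:156004298-156004497 in Sdf4, had a pile-up of 9 reads in the WT list.

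Il2rb lies on chromosome 15 from 78479256 to 78511621. SMC1A peaks numbered 11 and 11 in WT and 12 and 10 in KO, and CTCF peaks 15 in WT and 24 and 13 in KO. Per 1000 peaks SMC1A was 0.553 and 0.533 in WT and 0.426 and 0.483 in KO, and CTCF was 0.385 in WT and 0.43 and 0.567 in KO. SMC1A was lower and CTCF higher in both KO lists, with log2 differences of -0.26 ± 0.19 (SE; limma adjusted p = 0.6) and 0.36 ± 0.42 (limma adjusted p = 1). Neither passed the test. The SMC1A value was -0.16 without KO replicate 1, and the CTCF value 0.14 without KO replicate 2 and 0.57 without KO replicate 1. The gene body carried 1 peak, of KO SMC1A replicate 2, with 9 reads at its summit. The region nearest the gene was at chr15:78514483-78515209, 2.86 kb above it, in 2 SMC1A lists and all 3 CTCF lists.

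The strongest region near Il2rb, in every list, was at chr15:78531403-78533111 in C1qtnf6, 19.8 kb above the gene. Its SMC1A pile-up was 30 and 30 reads in WT and 43 and 21 in KO, and its CTCF pile-up 54 in WT and 150 and 55 in KO. The other regions in all 7 lists were at chr15:78405634-78407054 over Tst and Mpst, chr15:78447053-78449024 in Tmprss6, chr15:78571578-78572273 in Rac2, chr15:78581250-78582536 at the start of Gm36738, and chr15:78586928-78587705. The window held 1 gained SMC1A region, at chr15:78594753-78595336, with pile-ups of 13 and 7 reads in the KO lists. All 3 CTCF lists had a peak there, the WT list with 12 reads. It held 1 gained CTCF region, at chr15:78527905-78529234 in C1qtnf6, with 26 and 15 reads, where KO SMC1A replicate 2 also had a peak. The 3 lost CTCF regions, at chr15:78405204-78405526 in Tst, chr15:78451029-78451228 in Tmprss6 and chr15:78586575-78586839, had 12, 8 and 9 reads in the WT list.

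Tigit lies on chromosome 16 from 43626137 to 43665125 and is read from the minus strand. It had the fewest peaks of the 7 genes. SMC1A had 1 and 2 in WT against 3 and 3 in KO, and CTCF had 3 in WT against 8 and 2 in KO. Its mean SMC1A density stood at the 36.3 percentile of all protein-coding genes, while Itgae stood at 92.7, Il2rb at 89.2, Tnfrsf18 and Tnfrsf4 at 87.4, Lrrc32 at 68.7 and Foxp3 at 56. These densities are not divided by window length, which grows with the gene body. No region of the Tigit window was in all 7 lists. At the Tigit start itself, chr16:43663970-43664341, WT SMC1A replicate 1 alone had a peak, of 10 reads. The region with the most lists was at chr16:43540024-43540578 in Zbtb20, the gene of a zinc finger repressor that lies next to Tigit; 6 lists held it, all but WT SMC1A replicate 1.

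The gained SMC1A region of the Tigit window was at chr16:43573991-43574409, also in Zbtb20 and 51.7 kb from Tigit. Its pile-up was 17 and 10 reads in the KO SMC1A lists, the higher of which ranked in the top 29.6% of its list. CTCF was present there in all 3 lists, with 11 reads in WT and 69 and 13 in KO. Neither WT SMC1A list had a peak. The SMC1A density near Tigit differed by 0.60 ± 0.42 on the log2 scale (SE; limma adjusted p = 0.57), with 0.72 and 0.48 within the batches, and CTCF by 0.52 ± 0.53 (limma adjusted p = 1). Leaving out WT SMC1A replicate 1 gave 0.26, WT SMC1A replicate 2 gave 0.94 and KO SMC1A replicate 2 gave 0.38. For CTCF the value was 0.28 with KO replicate 1 left out. The SE was the largest of the 7 genes for both proteins.

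Itgae lies on chromosome 11 from 73090505 to 73147449. By mean peaks per 1000 over the lists, it ranked highest of the 7 genes for SMC1A and Il2rb for CTCF. These values are not divided by window length, and Itgae, at 56945 bp, is the longest of the 7 genes. SMC1A peaks numbered 12 and 14 in WT and 13 and 11 in KO, or 0.604 and 0.678 per 1000 peaks in WT and 0.462 and 0.532 in KO. CTCF peaks numbered 16 in WT and 20 and 12 in KO, or 0.41 per 1000 in WT and 0.359 and 0.523 in KO. SMC1A was lower in both KO lists, with a log2 difference of -0.36 ± 0.19 (SE; limma adjusted p = 0.44), and the CTCF value of 0.08 ± 0.44 (limma adjusted p = 1) changed sign with the set of lists. It was -0.06 with lists of equal length, 0.37 without KO CTCF replicate 1 and -0.20 without KO CTCF replicate 2.

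Inside the Itgae body, at chr11:73136622-73138680, all 7 lists placed a summit in the promoter of Haspin, a mitotic histone kinase gene nested in Itgae. The SMC1A pile-up was 11 and 9 reads in WT and 18 and 13 in KO, and the CTCF pile-up was 43 in WT and 90 and 26 in KO. Pile-up depends on depth. In rank this region was below 52.5% and 61.9% of peaks in the WT SMC1A lists and below 27.6% and 28.2% in the KO lists. Such a gap was not particular to it. Near Il2rb, chr15:78586928-78587705 had SMC1A −log10 q of 5.29 and 4.7 in WT and 19.5 and 11.4 in KO. The other way, chr4:156109146-156110530 ranked below 2.69% and 6.39% in WT and 6.67% and 8.3% in KO. How many regions stood apart was not counted. KO CTCF replicate 1 had 2 further peaks in the Itgae body that no other list had. The strongest region of the window in 4 of 7 lists was at chr11:73047275-73050141 over the Ncbp3 promoter, which has 2 CTCF words. Its SMC1A pile-up was 26 and 38 reads in WT and 47 and 23 in KO.

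The remaining Itgae regions in all 7 lists were 3 in P2rx1 (chr11:73001034-73001506, 73006182-73008522 and 73008548-73010042), 2 in Camkk1 (chr11:73018367-73020190 and 73039168-73039958), 1 over the starts of Emc6 and Tax1bp3 (chr11:73176793-73178144) and 1 over those of Ctns and Shpk (chr11:73198668-73200158). P2rx1 encodes an ATP-gated channel and Camkk1 a calcium-regulated kinase kinase. No SMC1A region of this window was lost or gained. The 2 lost CTCF regions, at chr11:73173081-73173280 and chr11:73201919-73202118, had 10 and 8 reads in the WT list.

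**Figure D3:**
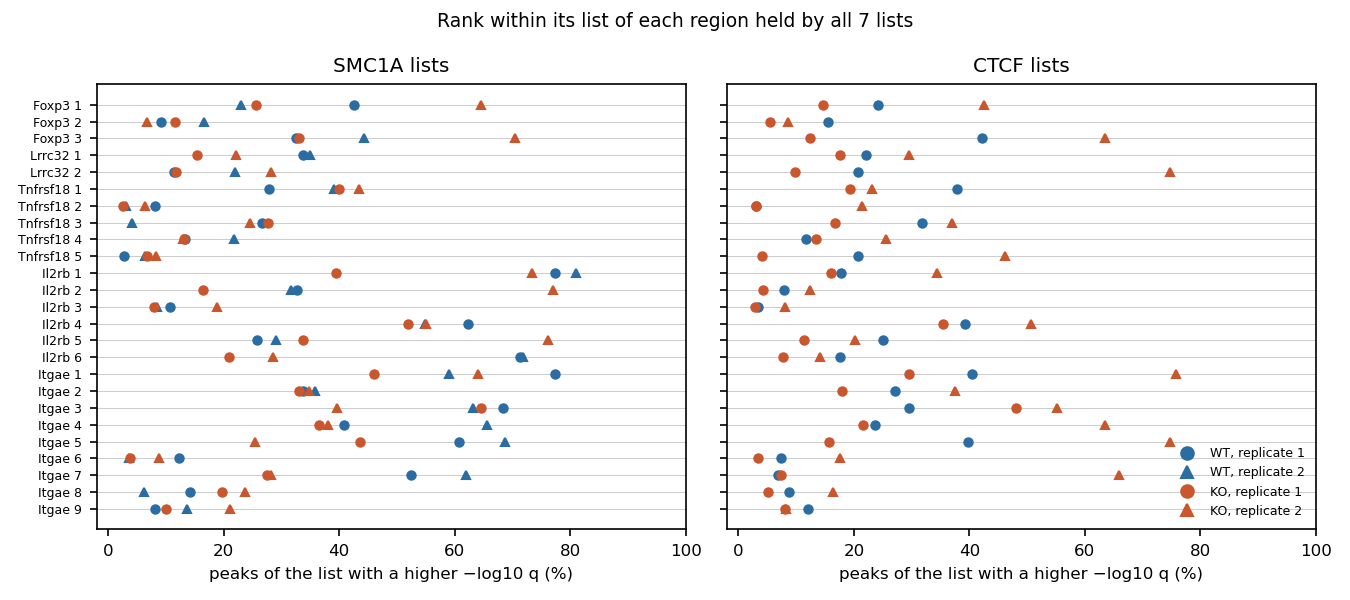
Rank of each region that all 7 lists hold, as the percent of peaks in the same list with a higher −log10 q, so that strong regions lie to the left; regions are numbered by position within each window, blue is WT, orange is KO, circles are replicate 1 and triangles replicate 2. The second Foxp3 region (Syp) and the second Tnfrsf18 region (B3galt6 and Sdf4) lie to the left in all 4 SMC1A lists, while most Il2rb and Itgae regions spread widely.

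Taking the windows as a set, WT SMC1A lists held 45 and 50 peaks near the 7 genes and KO SMC1A lists 49 and 42. Scaled to 1000 peaks they were 2.26 and 2.42 in WT and 1.74 and 2.03 in KO, a mean of 2.34 ± 0.113 against 1.89 ± 0.205 (SD, n = 2 each). The groups did not overlap, and the difference was -0.458, with -0.523 in batch 1 and -0.393 in batch 2. The exact two-sided permutation test gave p = 0.333, the smallest that 2 against 2 lists allow, so the design cannot reach p under 0.05. Without scaling to list length the difference was -2 peaks, with 4 in batch 1 and -8 in batch 2 (exact permutation p = 0.667), so the difference in batch 1 exists only after scaling.

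None of the 7 genes passed limma's test for SMC1A density at an adjusted p of 0.05. Unadjusted p was under 0.05 for 3 of them, Lrrc32, Tnfrsf18 and Tnfrsf4, the last pair on the same peaks. Over all 14597 genes tested, 0.281% were called higher and 0.103% lower in KO, and 1681 had an unadjusted p under 0.05. The median log2 difference of all tested genes was -0.11, and that of the 7 genes -0.36. Relative to the median of all genes, the log2 differences were 0.45 at Foxp3, -0.58 at Lrrc32, -0.49 at Tnfrsf18 and Tnfrsf4, -0.15 at Il2rb, 0.71 at Tigit and -0.26 at Itgae. Per 1000 peaks the genotypes did not overlap at all 7 genes, 5 lower and 2 higher in KO. The same held lower for 33.9% and higher for 13.1% of the genes tested. With the batch as a block, 0 genes were called in place of 56, and 0 without WT SMC1A replicate 1 or without WT SMC1A replicate 2. Leaving out KO replicate 1 gave 274 calls, and leaving out KO replicate 2 gave 214. Higher and lower calls numbered 41 and 15 here, 113 and 116 with lists of equal length, and 101 and 110 with a pseudocount of 2 peaks in place of 0.5. None of the 7 genes was called in any of these fits.

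For CTCF, limma called 0% of 16874 genes higher and 0% lower, with 210 at an unadjusted p under 0.05 and none of the 7 among them. The single WT list was assumed to vary like the 2 KO lists, which left 1 residual degree of freedom. On simulated counts this CTCF fit called 0 of 98 genes changed 4-fold. A count of 0 from so small a design does not show that CTCF density was alike.

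**Figure D4:**
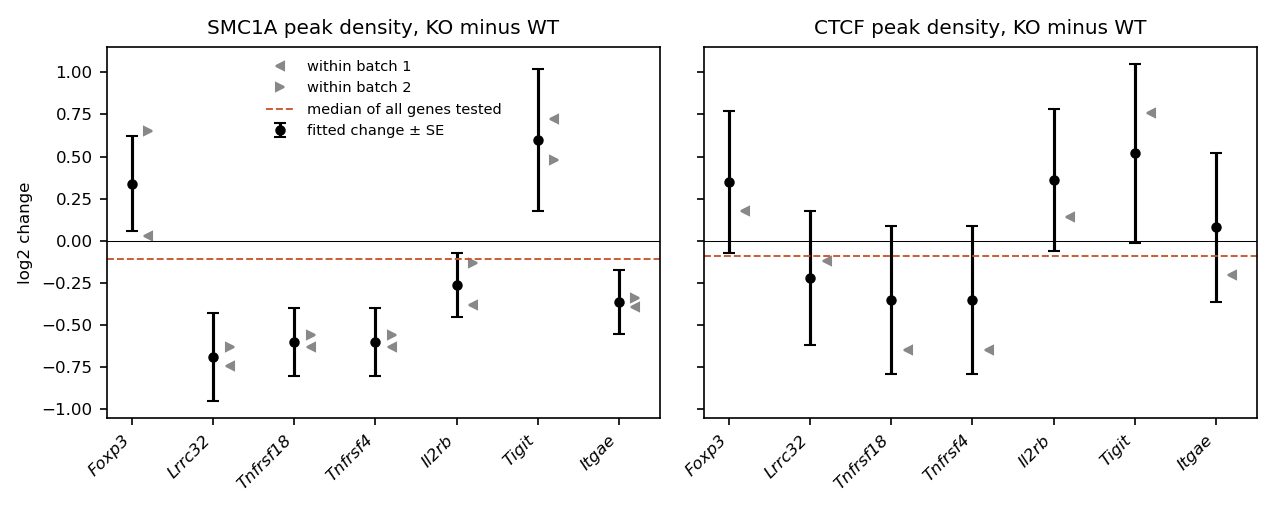
Fitted log2 difference in peak density, KO minus WT, with its SE (black), the values within each batch (grey triangles) and the median of all genes tested (dashed), for SMC1A on the left and CTCF on the right. SMC1A values run from -0.69 at Lrrc32 to 0.60 at Tigit, and none passed the adjusted test.

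At the level of single regions, a region was counted as lost if every WT list of that protein and no KO list held it, and as gained if both KO lists and no WT list held it. SMC1A peaks near the 7 genes formed 71 regions, of which all 4 lists held 30 (42.3%, beside 35.6% near all genes). Of the 37 regions in both WT lists, 2 were lost (5.41%), beside 3.99% near all genes. Of the 33 in both KO lists, 2 were gained (6.06%), beside 12.8% near all genes. The lost regions were at Lrrc32 and the Ube2j2 promoter, and the gained ones near Il2rb and in Zbtb20. The lost share is near the background. Leaving out WT replicate 1 gave 9 lost regions and leaving out WT replicate 2 gave 7; the KO lists left out in the same order gave 6 and 4, since fewer lists then have to hold or lack a region. Gained regions numbered 7 and 11 with these KO lists left out in turn.

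For CTCF, 7 of the 54 regions in the WT list were lost (13%), beside 18.8% near all genes, and 1 of the 36 in both KO lists was gained (2.78%), beside 7.69%. The lost CTCF regions had pile-ups of 8 to 12 reads in the WT list, at the weak end, while regions in all 7 lists had 14 to 60 there. Without KO CTCF replicate 1 the lost count was 23 and the gained count 5, and without KO CTCF replicate 2 the gained count was 35. KO CTCF replicate 1 is the longest list and replicate 2 the one with the highest background. Within batch 1, the KO CTCF list lacked 13% of the regions of the WT list near the 7 genes, beside 19.4% near all genes, and 42.7% of its own regions were absent from WT, beside 46.2%.

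Paired within a batch, each SMC1A list of one genotype lacked more regions of the other than the lost and gained counts show. In batch 1 the KO list lacked 22.7% of the WT regions near the 7 genes, beside 14.4% near all genes, and 29.2% of KO regions were absent from WT, beside 39.7%. In batch 2 the shares were 29.2%, beside 29%, and 19%, beside 28.5%. In both batches, 34 regions near the 7 genes were held by both genotypes.

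SMC1A peaks near the 7 genes overlapped a CTCF peak of any of the 3 CTCF lists in 86.7% (39 of 45) and 90% (45 of 50) of cases in WT and 98% (48 of 49) and 95.2% (40 of 42) in KO. The 95% Wilson intervals, which cover counting error only, ran from 73.8 to 93.7% and 78.6 to 95.7% in WT and from 89.3 to 99.6% and 84.2 to 98.7% in KO. The KO lists were higher by 8.27 percentage points, by 11.3 in batch 1 and 5.24 in batch 2, with an exact permutation p = 0.333, the smallest possible. The intervals overlap. Near all protein-coding genes the shares were 96.1% and 94.4% in WT and 95.3% and 96.6% in KO. The merged CTCF set holds 1 WT and 2 KO lists. With the WT CTCF list alone the shares near the 7 genes were 77.8% and 76% in WT and 87.8% and 83.3% in KO, and within 20 kb of the genes the difference was 1.8 points.

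The SMC1A peaks without CTCF numbered 6 and 5 in the WT lists and 1 and 2 in the KO lists. They were weak, with pile-ups of 5 to 11 reads apart from the 19 reads of WT replicate 2 between Tnfrsf4 and Tnfrsf18. In KO they were that same region and a peak in the Il2rb body, both in replicate 2, and the Tnfrsf18 start in replicate 1. No WT peak without CTCF lay near Foxp3 or Itgae. All SMC1A peaks near those genes were at CTCF in every list.

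**Figure D5:**
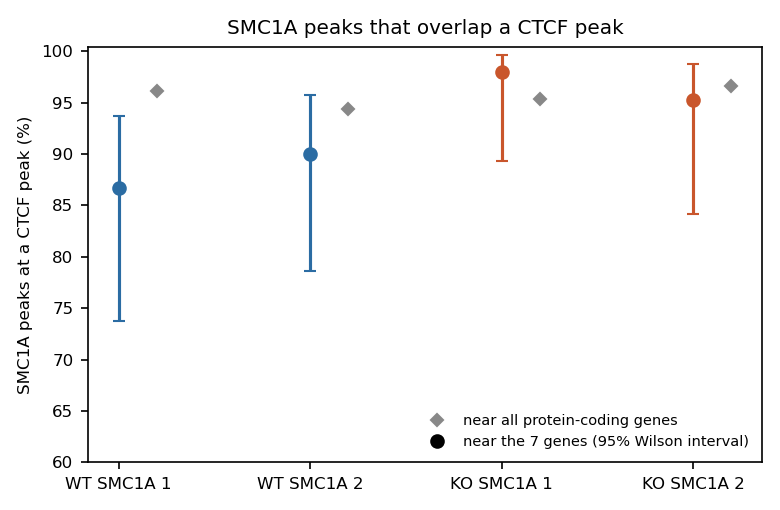
Share of SMC1A peaks near the 7 genes that overlap a peak of any CTCF list, in percent, for each SMC1A list with its 95% Wilson interval (circles), and the same share near all protein-coding genes (grey diamonds); the axis starts at 60%. The WT shares of 86.7% and 90% lie below the KO shares of 98% and 95.2%, with overlapping intervals.

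Other genes of the same biology were counted by list. Among 17 other regulatory T cell genes, 16 had enough SMC1A peaks to be tested and 0 were called by limma. Their median log2 difference was 0.09, beside -0.11 for all genes tested. A gained SMC1A region lay within 100 kb of 8 of the 17, Il2ra, Ikzf2, Ctla4, Icos, Tnfrsf1b, Nrp1, Entpd1 and Tnfrsf25, and a lost one near 0. Over all protein-coding genes 27% had a gained and 11.2% a lost region within that distance. Ctla4 and Icos are neighbours and can share regions. Among 15 regulators of Foxp3, all tested, 0 were called and the median was -0.15; 9 had a gained and 2 a lost region, Satb1 and Smad3. Among 20 ligands, receptor chains and partners of the 7 gene products, 15 were tested, 0 were called and the median was -0.34, with gained regions near 9 and lost ones near 4, Il2rg, Nectin2, Tgfbr1 and Tgfbr2. For CTCF 0 genes of the 3 lists were called, with medians of 0.00, -0.06 and 0.03 beside -0.09 for all genes. A lost CTCF region lay near 11 of 17, 12 of 15 and 10 of 20 genes of these lists in turn, beside 57.8% of all protein-coding genes, and a gained one near 3, 5 and 9, beside 19.6%. The median gene of these lists had 4, 12 and 7 peaks within 100 kb in WT SMC1A replicate 1, beside 3 over all genes. In the WT CTCF list it had 9, 15 and 10, beside 7. The shares with a lost or gained region were not adjusted for these numbers of peaks.

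None of these 46 tested genes passed, and the 6 with the lowest p are given. Ikzf2, which encodes Helios, had 3 and 3 SMC1A peaks in the WT lists against 12 and 7 in the KO lists, a log2 difference of 1.22 ± 0.26 (SE; limma adjusted p = 0.075). Satb1, the targeted gene, had 18 and 20 against 16 and 5, a difference of -1.28 ± 0.28 (limma adjusted p = 0.085), with 5 lost regions. Icos, an inducible costimulator, had 3 and 3 against 8 and 8 (1.03 ± 0.27; limma adjusted p = 0.17). Cd226, a receptor that shares ligands with TIGIT, had 0 and 1 against 4 and 4 (2.12 ± 0.56; limma adjusted p = 0.16). Il15ra, which presents IL-15 to the IL2RB chain, had 8 and 6 against 17 and 13 (0.80 ± 0.21; limma adjusted p = 0.17). Jak1, a kinase bound to the IL-2 receptor, had 7 and 7 against 16 and 11 (0.62 ± 0.20; limma adjusted p = 0.25). These genes were chosen for their low p, so that their genotypes stand apart is no further result.

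Marker genes of the sorted cells and of other thymus cells were counted in the same way, although binding does not measure expression and names no cell type. Of 28 such genes, 24 were tested for SMC1A and 0 were called by limma. The median log2 difference was -0.19 for 8 DP thymocyte genes such as Cd4 and Rag1, -0.08 for B cell genes, 0.04 for myeloid genes, 0.17 for erythroid genes and -0.41 for thymic epithelial genes. A gained SMC1A region lay near 7 of 8 DP thymocyte genes and 4 of 5 myeloid genes. It lay near 1 of 5 in each of the other 3 lists, beside 27% of all protein-coding genes. Gained regions were thus not limited to regulatory T cell genes. Lost SMC1A regions lay near Cd8a, Cd8b1, Lyz2 and Aire, beside 11.2% of all protein-coding genes. Neighbouring genes can share regions, so the genes of a list are not independent. A lost CTCF region lay near 8 of 8 DP thymocyte genes and 4 of 5 myeloid genes. It lay near 3 of 5 B cell, 2 of 5 erythroid and 4 of 5 thymic epithelial genes, beside 57.8% of all protein-coding genes. The numbers of peaks in the windows differed here too, and the shares were not adjusted for them. The median DP thymocyte gene had 10.5 peaks in WT SMC1A replicate 1 and 17 in the WT CTCF list, beside 3 and 7 over all genes. In the same 2 lists the myeloid median was 6 and 9, and the erythroid median 2 and 3.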

How the data were processed

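CUT&RUN peak lists of SMC1A and CTCF from sorted DP thymocytes were analysed, 7 lists from 18 samples, grouped by genotype and antibody in the labels. Per the submitters' processing notes, the tools were MACS2, Bowtie2, Trimmomatic 1.24, deepTools, SAMtools and R 4.12, and the build was mm10. How peaks were called, and against which control, is not given in the sources used here. Each deposited list, called per sample, gives a fold enrichment (ratio) and −log10 p and −log10 q values per peak, and a summit offset. Peaks of 2 samples, mapped by the names inside their lists, were deposited with the series.

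Only peaks of the 19 autosomes and the sex chromosomes were used, and regions merged on an overlap of at least 1 bp. Gene bodies were taken from RefSeq (GRCm38.p6), in a table that lists neither strand nor exons; no region is therefore called exonic or intronic. A Poisson model gave each peak's pile-up and local background from its deposited −log10 p and fold. As a check it was solved for 1489 to 1500 randomly drawn peaks per list. All but 1 of these were met within 0.001. The error for the peaks named above is not given. Density, log2((peaks within 100 kb + 0.5) per 1000 peaks), was fitted with limma 3.58.1 (trend, Benjamini-Hochberg) over genes with a mean of at least 2 peaks, in R 4.3.3. Python 3.11.15, numpy 2.4.6, pandas 2.3.3 and scipy 1.17.1 were used. The SMC1A fit was tried on simulated counts with known changes. It called 1 of 91 genes changed 2-fold (1.1%), 31 of 97 changed 4-fold (32%) and 0 of 13682 unchanged genes. The CTCF fit, tried in the same way, called 0 of 98 genes changed 2-fold and 0 of 98 changed 4-fold. A gene that did not pass can therefore still have changed. For CTCF the test cannot decide on changes of these sizes. Intervals cover counting error only.

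Regions named are those in all 7 lists, lost, gained, nearest the gene or strongest; other genes are those called, else the 6 with the lowest p. The 7 genes and all gene lists were chosen with earlier results of these data known. The replicate number in the sample title was taken as the batch and used to pair samples, and processing batches as such are not known. Same-numbered SMC1A lists did not deviate together, with r = -0.0176 over 14597 genes, so these densities give no sign of a pairing. Alternatives were a −log10 q of 5, lists of equal length, a 20 kb window, other overlaps, scalings, pseudocounts and filters, each list left out, and the batch as a block. Input, IgG and H3K27ac samples and the second WT CTCF sample were not used here.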

Additional observations from a re-analysis of the deposited data

How the results depend on the processing

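Differences in SMC1A peaks near the genes (-0.602 to -0.313 with 1 list left out) and in their share at CTCF (6.6 to 9.93 points) kept their direction under all alternatives, and no test of them could pass. The replicate block gave the same -0.458 and 8.27, as it must with 1 SMC1A list of each genotype per replicate number. It gave 0 called genes for SMC1A density in place of 56. No paired analysis was possible for CTCF because batch 2 has no WT list here. The SMC1A count of called genes was also 0 with a −log10 q of 5, with a 20 kb window and with each list centred on its median gene, 229 with lists of equal length, 211 with a pseudocount of 2, and 0 to 274 with 1 list left out. For CTCF 1 gene was called with a −log10 q of 5. Lost SMC1A regions numbered 1 with a −log10 q of 5, 4 with lists of equal length, 1 within 20 kb and 4 to 9 with 1 list left out. Gained SMC1A regions numbered 0 within 20 kb and 2 to 11 with 1 list left out. Lost CTCF regions numbered 4, 3 and 1 under the same 3 settings, 16 with summits within 200 bp, and 7 to 23 with 1 list left out. Gained CTCF regions numbered 0 with a −log10 q of 5, 3 with lists of equal length, and 5 to 35 with 1 list left out. Of 124 single-gene values under alternatives, 118 kept their direction, 6 reversed and 0 passed the threshold. These values are not independent checks. The block fit for SMC1A and the fits without the filter must return the main estimates. Tnfrsf18 and Tnfrsf4 share their peaks except in the 20 kb window. CTCF fits with 1 list left out gave no p-value, so they could not pass. Genes below the filter are not counted, among them Foxp3, Il2rb, Tigit and Itgae for SMC1A within 20 kb. The 6 that reversed were SMC1A at Foxp3 (-0.05 with a −log10 q of 5), CTCF at Itgae (-0.01 with a −log10 q of 5, -0.06 with equal lengths, -0.20 without KO CTCF replicate 2 but 0.37 without KO CTCF replicate 1), and CTCF within 20 kb at Tnfrsf18 (1.10) and Tnfrsf4 (0.06). The cause of these moves was not tested, beyond the construction of shorter lists and fewer lists. Pile-ups under 10 reads limit the lost and gained calls.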
